A study of Drosophila melanogaster with 16 samples.

Results

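The genes without coding sequence are 337 of the 14229 genes listed in this Drosophila melanogaster data set. They are the genes whose rows all have a coding length of 0, and each is represented by its longest model. In all, 514 of the 24995 transcript models have no coding length, and 0 genes have models of both kinds. By name, 260 carry the prefix CR, which annotators give to genes for noncoding RNA or pseudogenes. Of these, 214 lie on chromosome arms or named heterochromatin and 46 on the unplaced scaffolds U and Uextra. Another 42 are Su(Ste) genes, all on those scaffolds. The remaining 35 have names of their own, among them 10 pncr genes, 7 Uhg genes, 3 tre- genes, roX1 and roX2. Genes named tRNA, snRNA, snoRNA or mir- number 0, so the short structural RNAs and most microRNAs are not among these rows. A later annotation, used for names only, matched 283 of the 337. It lists 202 as long noncoding RNA, 52 as antisense RNA and 14 as protein coding, and 54 had no match. An older name can have been held by several genes, so a few matches may be wrong.

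Long noncoding RNAs are transcribed mostly by RNA polymerase II, and many stay in the nucleus, where some, such as the roX RNAs of male flies, act on chromatin. Others serve as hosts: a Uhg gene is a snoRNA host gene, whose introns release snoRNAs while the spliced exons have no known protein product. RNase P and RNase MRP RNAs are the RNA subunits of enzymes that trim tRNA and ribosomal RNA precursors. Su(Ste) repeats of the Y chromosome are a classic source of piRNAs, the small RNAs that guide Piwi-family proteins, and act against the Stellate genes in the testis.

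The RNA came from OSS cells, a cell line of ovarian somatic (follicle) origin. Each 10 cm plate was electroporated with 500 pmol of siRNA, against GFP as the control (siGFP), piwi (siPIWI), the Paf1 gene (siPAF1) or both (double), and harvested at 6 days. RNA was taken from a pellet called NUN, an abbreviation that is not spelled out, and from the lysate of the cytoplasm (cyto). There are 2 strand-specific libraries for every one of the 8 groups, which makes 16, and paired values below give the library with the lower number in the labels first. Sequencing runs held 8 libraries each, but the labels do not say which, so run could not be compared with group. Piwi is the nuclear protein through which piRNAs silence transposons in these cells, and Paf1 is a subunit of a complex that travels with RNA polymerase II. The sources do not say whether both libraries of a group came from separate cultures, so the p-values measure the spread between these libraries.

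Summed over all gene windows, NUN libraries held 3291537 to 8608633 unique counts, and cyto libraries 1011011 to 2464392. The follicle cell factor tj stood at 1950 to 3840 CPM (counts scaled to a common library size) on coding sequence in NUN, and the germline gene vas at most at 2.47. The piwi mRNA in cyto was 115 and 43.7 CPM in siPIWI against 186 and 276 in siGFP. In NUN it was 909 and 576 against 1080 and 985. In double it was 138 and 31.3 CPM in cyto and 1130 and 737 in NUN, so the first NUN library labelled double was above both of siGFP and went against its label on this measure. The Paf1 mRNA, listed as atms, was 25.5 and 18 CPM in NUN of siPAF1 against 83.9 and 57 in siGFP. In bulk RNA, fewer cells and less RNA per cell cannot be told apart.

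The noncoding genes held little of the RNA counted. Of the 337, 151 had at least 1 unique count on their own strand in the 16 libraries, 186 had none, and 42 averaged at least 10 counts per library. Together they took 92882 unique counts, between 0.0973% and 0.202% of the unique counts of all genes in a library. Only 15 had a count in all 16 libraries. Counts appeared in both fractions for 66 genes, in NUN alone for 82 and in cyto alone for 3. This split is not corrected for depth or window length. All NUN libraries were deeper than the cyto libraries and, as described below, had more windows extended. Of the 151 genes, 25 rest on a single count. A single gene, Uhg7, held 24.9% of the counts, and the 10 most abundant held 70.8%.

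Most of these counts lay outside the annotated genes. The authors' counting window starts 50 bases beyond each end of a gene and is extended library by library, by up to 6708 bases on the left and 8510 on the right. In the rows of these genes, 1 block holds the annotated exons and the left flank, here called the exon side. A second block holds the flank to the right of the annotated end, here called the far side. This reading of the blocks was worked out from the lengths in the files, and the sources used here do not give it or the rule by which windows grow, so every exon-side and far-side value rests on it. The far side held 54977 counts (59.2%), the space between the blocks, which is intron, 28034 (30.2%), and the exon side 9871 (10.6%, Wilson 95% interval 10.4% to 10.8%). This interval, like those below, reflects counting error alone, because duplicate reads of 1 molecule cannot be recognised here. It treats counts as independent and leaves out the spread between genes and between libraries. CR43459 alone held most of the exon-side counts, in NUN libraries whose window was extended to the left. Of the exon-side counts, 9546 came from windows that had been extended on that side and 325 from windows that had not. With the 44 genes whose window runs into a coding gene on the same strand left out, the exon side held 27.1% of 32691 counts. Most of those exon-side counts were again of CR43459.

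**Figure D1:**
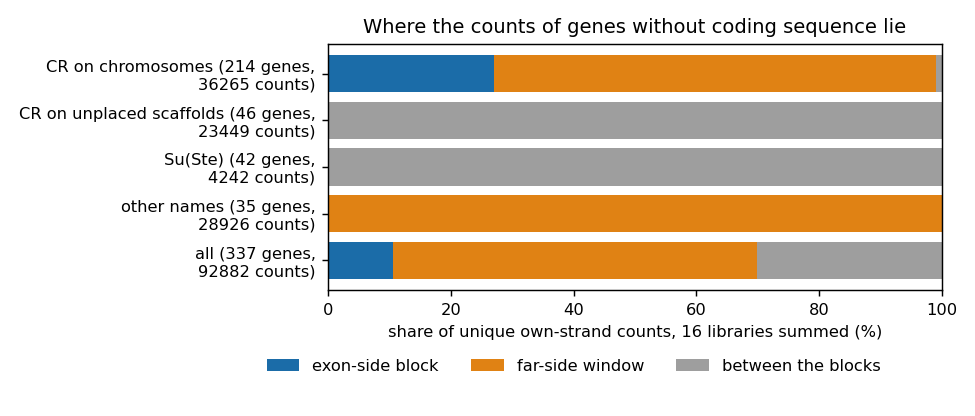
Share of the unique own-strand counts (in percent, 16 libraries summed) on the exon side, on the far side and between the blocks, for each class of genes. Counts of the CR genes on chromosomes and of the genes with other names lie mainly on the far side (71.9% and 99.9%), and those of the scaffold genes between the blocks (99.9% and 100%).

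Where the window was not extended on the exon side, that block held few counts. In the 5282 combinations of gene and library whose window was not extended on the exon side (of 5392), the exon side held 325 counts on the own strand and 1041 on the opposite strand. That is 0.0483 counts per kb and library, against 92.2 on the coding sequences of the other 13892 genes. On this measure 285 genes (84.6%) had no count in any library, against 1351 (9.73%) of the coding genes. The measure leaves out 96.7% of the exon-side counts, those in extended windows, where exon and flank cannot be told apart, so it says little of genes whose windows grew. CR34335, for example, had 81 exon-side counts in windows of at most 492 bases, of which 8 count here. The highest on this measure were CR42862 with 74 counts over all libraries, CR32218 with 33, CR43334 with 32, CR32207 with 20 and CR43399 with 19. CR32218 and CR43399 lie inside the coding genes Mi-2 and ena on the same strand. CR42862 overlaps CG33229, whose coding sequence had 0 counts in every library but whose whole window passed the count filter in NUN. The sources used here do not say whether reads of noncoding RNA were removed before counting.

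Well-known noncoding RNAs were among the empty genes. Hsromega, the 14084-base gene of the nuclear omega speckles, had 0 counts on either strand in all 16 libraries. roX1 and roX2, the RNAs of the male dosage compensation complex, had 0 and 1 own-strand counts in all. The bithorax-complex RNAs bxd and iab-4 and the gene sphinx had 0, and msa, a 92118-base gene of the same complex, had 9, all in introns. The microRNA gene bft, the repeat gene alphagamma-element:CR32865, Uhg2 and pncr002:3R also had 0. The hairpin gene CR18854, known as a source of endogenous siRNAs in flies, had 6.

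Uhg7 was the most abundant gene of the set. It lies on the minus strand of 3L at 1666287 to 1667307 (coordinates as in the files; their build is not named in the sources used here), and its right end overlaps RpL23A, a ribosomal protein gene on the same strand. All 23084 of its unique counts fell on the far side, in the window over RpL23A, and 0 on its exon side. In NUN it had 692 and 628 counts in siGFP, 1050 and 266 in siPIWI, 311 and 811 in siPAF1, and 227 and 701 in double. In cyto it had 1844 and 1638 counts in siGFP, 1795 and 1517 in siPIWI, 3302 and 2452 in siPAF1, and 3676 and 2174 in double. Every cyto library was above every NUN library, although the cyto libraries are smaller and their windows, at 1463 bases, no longer than any in NUN. In edgeR's quasi-likelihood test over the 4 siRNA groups Uhg7 was lower in NUN by a log2 fold change of -4.52 ± 0.24 (SE, adjusted p = 6.81e-11), and RpL23A by -4.50 ± 0.21 (adjusted p = 1.44e-11).

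RNaseP:RNA, the RNA subunit of RNase P, lies at 27043085 to 27043384 on the minus strand of 3R, inside CG1746. Of its 4135 counts, 4118 fell on the far side and 17 on the exon side. It had a count in all 16 libraries, from 76 to 866 in NUN and from 35 to 292 in cyto. Scaled to CPM, it stood at 28.1 and 42 in cyto of siGFP, 69.9 and 39.8 in siPIWI, 56 and 79.8 in siPAF1, and 99.4 and 42.8 in double. Levels of siPAF1 lay above those of siGFP, and 1 library of siPIWI overlapped with siGFP. The NUN against cyto difference was -0.48 ± 0.36 (SE) on the log2 scale (adjusted p = 0.225), and that of CG1746 was -0.93 ± 0.13 (adjusted p = 5.74e-06). RNaseMRP:RNA (19555769 to 19556151 of 3R) had 66 counts in the second NUN library of siGFP, 85 in the first of siPIWI and 0 in the other 14. In these 2 libraries its window was 1931 bases long and reached the coding gene Rpn9, against 482 to 731 bases in the others.

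The host and pncr genes followed the same layout. Counts of Uhg4 (295), Uhg1 (110), Uhg8 (55) and Uhg3 (48) lay on the far side, apart from 1 exon-side count of Uhg3, and Uhg5 had 2. Uhg4 and Uhg1 held more on the opposite strand, 1928 and 836 counts. Among the pncr genes, pncr011:3L led with 889 counts, all on the far side, where its window runs over APP-BP1 on the same strand. Its counts were 0 and 195 in NUN of siGFP, 381 and 52 in siPIWI, 0 and 1 in siPAF1, and 62 and 187 in double. Its window measured 2002 bases in the first siGFP library and 3694 in the second, and it had 0 counts at 2002 bases in NUN. pncr013:4, on the fourth chromosome, had 5 counts in NUN and 58 in cyto.

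CR32218 and CR43459 were the most abundant CR genes on chromosomes. CR32218 (3L, 19888315 to 19889490, minus strand) lies within Mi-2 and Su(Tpl), coding genes on the same strand. Its counts were 186 and 2107 in NUN of siGFP, 1205 and 15 in siPIWI, 1202 and 3133 in siPAF1, 242 and 914 in double, and at most 1 in any cyto library. Its window ran from 1335 bases, in the NUN library with 15 counts, to 9735 bases in the one with 2107, and was 1275 bases in all cyto libraries. The groups overlapped in NUN, and the libraries with the longest windows had the highest counts.

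CR43459 (3R, 5919483 to 5925937, plus strand) has no coding gene on its own strand within its window. It had 297 and 1269 counts in NUN of siGFP, 659 and 172 in siPIWI, 2694 and 3029 in siPAF1, 331 and 1006 in double, and 3 in all 8 cyto libraries together. Of its 9460 counts, 8490 were on the exon side and 970 on the far side. Its models, of 864 and 6454 bases, share the same left end and held the same exon-side counts in every library, for example 2494 in the first NUN library of siPAF1 and 248 in the first of siGFP. In the cyto libraries, whose windows were not extended to the left, the exon side held 0. In NUN the left flank ran for 632 to 3382 bases.

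CR43609, at the left end of 2L (21951 to 24237, plus strand), had 161 and 205 counts in NUN of siGFP, 1466 and 113 in siPIWI, 1123 and 259 in siPAF1, 219 and 47 in double, and 3 in all of cyto. Of its 3596 counts, 3595 lay on the far side, where its window runs past no coding gene of its strand. The high libraries, with 1466 and 1123 counts, had windows of 7699 and 7449 bases, and the other NUN libraries 2599 to 3899. CR42767 is the extreme case. It had 3326 counts in the first NUN library of siPIWI, where its window grew to 8346 bases and reached CG32702, a coding gene on the same strand. In the other 15 libraries it had 0 to 3 counts and windows of 864 to 996 bases. CR43465 had 1260 counts in the same library, at a window of 5492 bases, and CR33963 had 1202 in the second NUN library of siGFP, at 7156 bases.

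**Figure D2:**
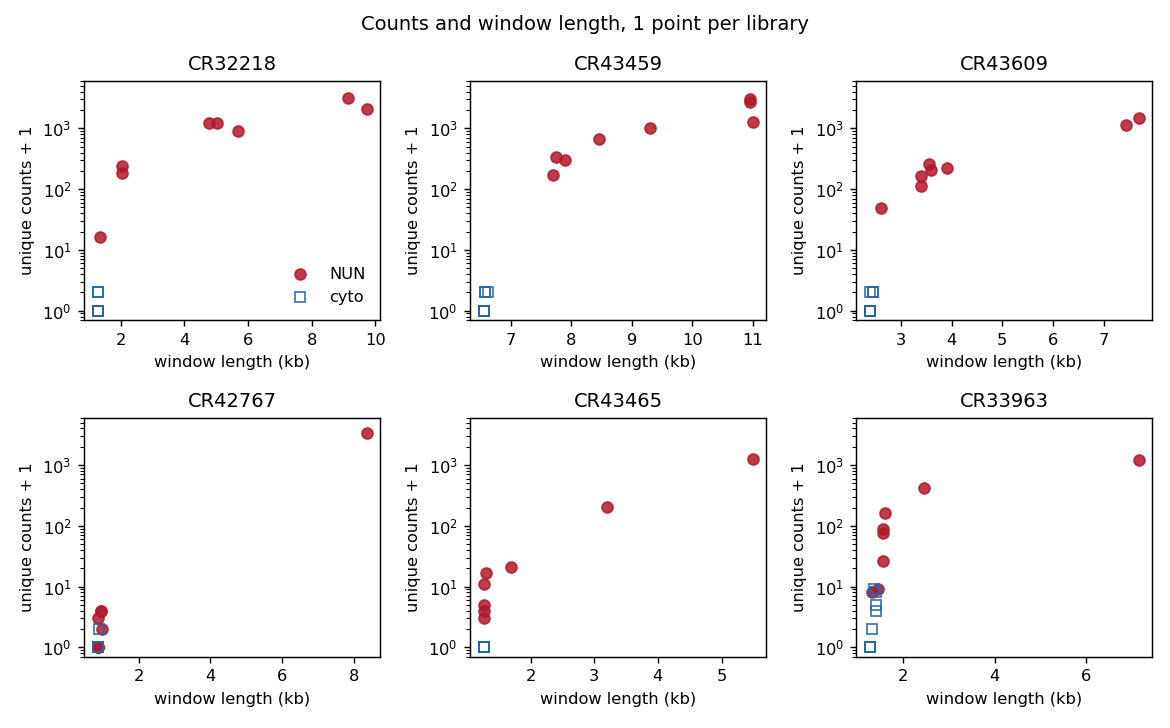
Unique own-strand counts plus 1 (log axis) against the length of the counting window in kb for 6 CR genes, 1 point per library, filled circles for NUN and open squares for cyto. Libraries with longer windows have higher counts, and CR42767 has its 3326 counts in the 1 library whose window is 8346 bases long.

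Window length varied by library as a whole. In NUN, 48 to 87 of the 337 windows were extended beyond the pad, by 20.6 to 106 kb in all, and in cyto 12 to 25 windows by 5.79 to 9.56 kb. The longest total belonged to the first NUN library of siPIWI, which was also the deepest of the 16, and the shortest NUN total to the second library of that group, the shallowest in NUN. Windows differed between libraries for 138 genes, by more than 1.5 times for 48. Where a gene is compared between libraries below, the counted stretch can differ, and the comparisons were repeated with window length as an offset and over the genes with windows clear of coding genes.

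RNA on the strand opposite to these genes was counted as well. Opposite-strand counts summed to 134746, so the own strand held 40.8% of both, and 50.1% with CR31514 left out. Among CR genes on chromosomes it held 28.1%, and among those with other names 83.8%. CR31514 had 44162 counts on the opposite strand, where RpS29 and others lie, against 2078 on its own. CR43496 had 11903 against 673, where CG14438 covers it on the opposite strand, and yar, a long noncoding RNA between yellow and achaete that affects sleep in flies, had 2363 against 71. On the exon side in unextended windows CR31144 led, with 217 opposite-strand counts.

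Genes on unplaced scaffolds differed from the rest in how reads aligned. Their unique counts came to 27691, but all alignments, where a read that fits several places counts at each, came to 862008. For CR genes on scaffolds 3.57% and for Su(Ste) genes 2.08% of alignments were unique, against 99.9% for the placed genes. Their models are also unlike ordinary genes: 35 of the 88 span more than 100 kb, up to 3784166 bases, and 99.9% of their unique counts lay between the annotated blocks. Among Su(Ste) genes the 8 long models held 4241 unique counts and 204258 alignments, whereas the 34 compact ones, of 500 to 1848 bases, held 1 and 16. All 4242 but 1 therefore came from long scaffold spans and none from an annotated Su(Ste) exon. Overlapping models on the same strand count the same reads: 46 of the 337 genes stand in 47 such pairs, among them CR40507, CR40508 and CR40571, and are not independent.

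**Figure D3:**
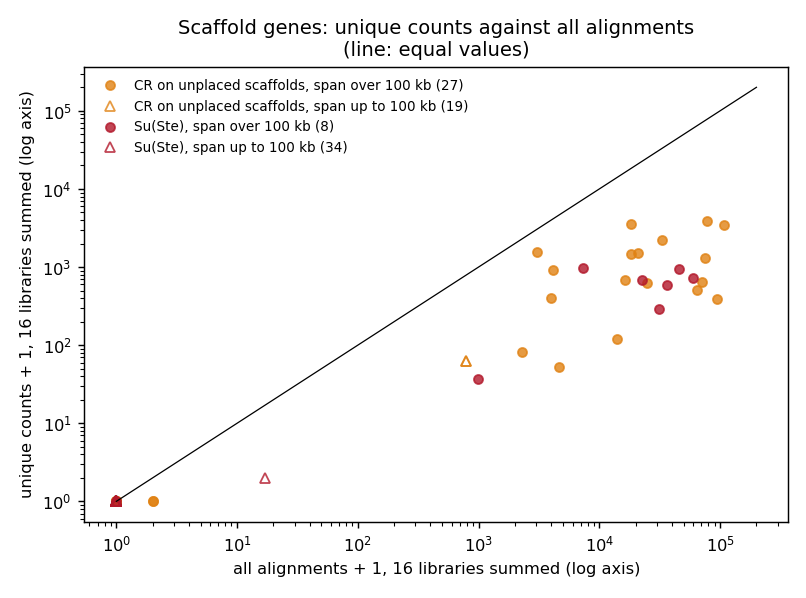
Unique counts plus 1 against all alignments plus 1 (both log axes, 16 libraries summed) for the 46 CR genes on unplaced scaffolds and the 42 Su(Ste) genes, filled circles for spans over 100 kb and open triangles for shorter ones. Every gene with counts lies below the line of equal values, and nearly all short Su(Ste) genes sit at 0 on both axes.

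The most abundant scaffold genes by unique counts were CR41606 (3874), CR40597 (3544) and CR41609 (3481). CR40597, a 1470965-base span on Uextra with no coding gene on its strand, had 178 and 278 counts in NUN of siGFP, 344 and 398 in siPIWI, 588 and 491 in siPAF1, and 169 and 271 in double. In cyto it had 110 and 89, 151 and 101, 121 and 70, and 92 and 93 in the same groups. Its CPM in NUN of siPIWI, 38.1 and 118, enclosed both values of siGFP, 46.7 and 49.5. CR41609 and CR40743 led by all alignments, with 108545 and 94951. Among Su(Ste) genes, Su(Ste):CR42440 had 973 unique counts and Su(Ste):CR40820 had 952. Su(Ste):CR40820 spans 764781 bases and 15 coding genes of its strand.

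The comparison of NUN with cyto asked in which fraction the window counts of these genes were higher. Most of those counts lie outside annotated exons, so a call need not concern the RNA of the gene named. Of the 51 genes that passed the count filter in the fit across fractions, 34 were higher in NUN and 6 lower over the 4 siRNA groups (edgeR, adjusted p under 0.05), or 78.4% called against 83.1% of all 8548 genes tested. The 66.7% called higher stood against 45.8% of all genes. The other 286 genes, including every empty one, did not enter. Filtered within a fraction alone, 52 genes passed in NUN and 11 in cyto, so many of the 51 entered through NUN counts. An excess called higher in NUN was therefore in part fixed by the filter, and the share describes only genes that passed. In siGFP alone 23 were higher and 6 lower, 56.9% called against 64.6% of all genes. The median log2 difference over the 4 groups was 3.41 for the 51 and 0.27 for all genes, and 3.13 with the 7 genes without cyto counts set at a floor of 3 counts over the group. In siGFP it was 3.16 against 0.40, and 1.70 with a floor for 16 genes that lacked counts in a fraction. Of these 16, CR34335 lacked them in NUN and not in cyto. Another 3 lacked cyto counts but stood below the floor in NUN, and were set to no difference. Without the floor, the median differed with window length. It was 5.31 over the 4 groups for the 20 genes whose windows differed by more than 1.5 times between libraries. For the other 31 it was 2.52. In siGFP these medians were 7.23 and 1.77. Scaling the libraries by coding-sequence counts moved the median of all genes to -0.18 and -0.26. It gave 32 higher with 8 lower over the 4 groups and 13 with 7 in siGFP. Shares of all genes called under that scaling are not given here.

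**Figure D4:**
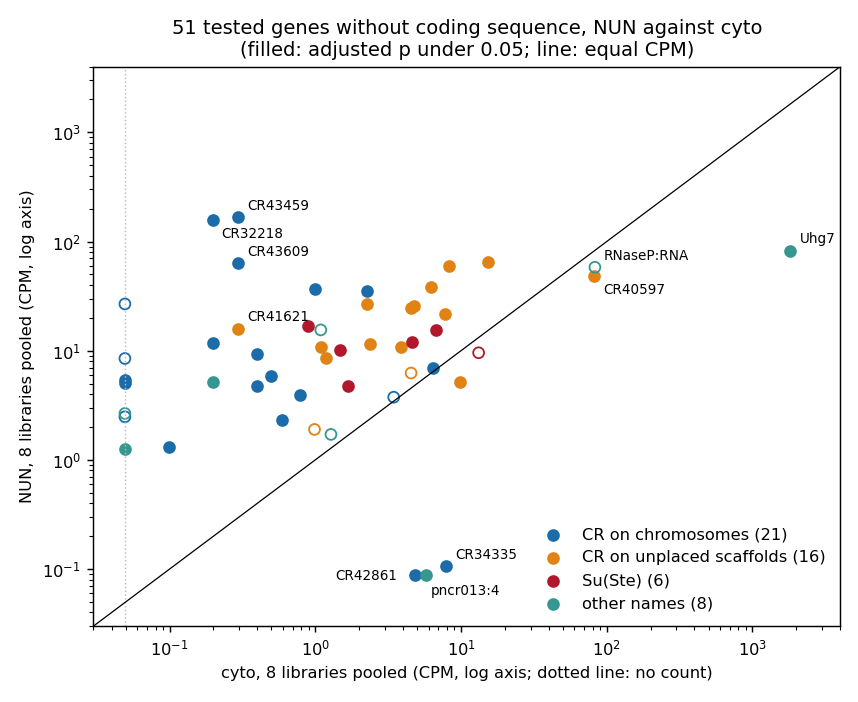
Pooled CPM in NUN against pooled CPM in cyto (log axes, 8 libraries each) for the 51 tested genes, coloured by class, filled where the adjusted p is under 0.05, with the line of equal CPM and a dotted line for genes without cyto counts; windows can be longer in NUN. Most points lie above the line, and CR34335, CR42861, pncr013:4 and Uhg7 lie far below it.

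Among the CR genes on chromosomes, 15 of 21 tested were higher in NUN over the 4 groups and 2 were lower, against 45.8% and 37.3% of all genes. The limit set by the filter applies here as well. For many of them the NUN windows were longer than those in cyto, so sums and fold changes, including the medians above, compare unequal stretches. In this part no fold is printed for those called higher, except for CR43496 with and without an offset. CR43459 had 9457 counts in NUN and 3 in cyto (edgeR adjusted p = 5.96e-09), of which the far side held 967 and 3. At its shortest NUN window, 7699 bases, it had 172 counts, against at most 1 at 6554 to 6617 bases in cyto. CR32218 had 9004 counts in NUN and 2 in cyto (edgeR adjusted p = 0.00137), but 15 counts (3.35 CPM) at a NUN window of 1335 bases, close to the 1275 bases of cyto. The genes around it were also higher in NUN, Mi-2 by 2.45 ± 0.14 and Su(Tpl) by 4.26 ± 0.22 on the log2 scale (SE).

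CR43609 had 3593 and 3 counts (edgeR adjusted p = 0.000261), and 47 at its shortest NUN window of 2599 bases. CR43399 and CR43470 had 290 and 306 counts in NUN and none in cyto (adjusted p = 0.00472 and 0.0194). At the window lengths of cyto, 906 and 2059 bases, they had 3 and 0 counts in a NUN library. CR43242 (531 and 4 counts, adjusted p = 1.72e-07) and CR43496 (adjusted p = 6.53e-06) were also called higher. With window length as an offset, CR43459, CR32218, CR43609, CR43399, CR43470, CR43242 and CR43496 were still called over the 4 groups. In siGFP alone CR43496 was not, at a log2 difference of 2.21 against 4.85 without the offset. The offset assumes that counts spread evenly over a window, which was not tested.

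CR34335 and CR42861 went the other way. CR34335 (X, 3439894 to 3440143) had 0 counts in both NUN libraries of siGFP and 12 and 3 in cyto, and 6 against 80 over all libraries. Its log2 difference was -6.53 ± 0.72 (SE, adjusted p = 9.92e-07), 81 of its 86 counts lay on the exon side, and its window, of 349 to 492 bases, runs over no coding gene of its strand. CR42861 (5 counts in NUN, 49 in cyto) differed by -6.13 ± 0.63 (adjusted p = 4.97e-07), with 2492 counts on its opposite strand. pncr013:4 differed by -5.40 ± 0.60 (adjusted p = 4.51e-07). These 3 genes rest on 54 to 86 counts each.

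On the scaffolds, 12 of 16 CR genes were higher in NUN and 2 lower, and 5 of 6 Su(Ste) genes were higher, against 45.8% of all genes higher and 37.3% lower. These counts include overlapping models such as CR40507, CR40508 and CR40571, and the limit set by the filter applies to them too. Scaffold windows had the same length in the libraries compared for the genes named here. CR41621 was higher at 15.9 against 0.296 CPM, a ratio of 53.7 with an interval of 18.3 to 261 (edgeR adjusted p = 6.27e-08), CR41606 by 2.08 ± 0.16 (log2, SE, adjusted p = 6.09e-09) and Su(Ste):CR42440 by 5.31 ± 0.43 (adjusted p = 1.50e-08). CR40597 (-0.82 ± 0.23, adjusted p = 0.00421) and CR40743 (-0.86 ± 0.28, adjusted p = 0.00975) were lower. Counted by all alignments, CR40597 was higher in NUN, at 1.23, so its direction depends on how repeated reads are treated.

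The knockdown comparisons asked whether siRNA against piwi, Paf1 or both changed the window counts of these genes, most of which lie outside annotated exons. In NUN, 52 of the 337 genes passed the count filter, and in cyto 11. None passed the adjusted threshold in edgeR's test in any of the 10 comparisons within a fraction. The background was as low: in NUN 0.145% of all 8939 genes tested were called for siPIWI, 0.0336% for siPAF1 and 0.0671% for double against siGFP, and 0% for double against either single knockdown. In cyto 0.0149%, 0.0746% and 0.0597% of 6699 genes were called against siGFP, and 0.0299% and 0.0149% for double against siPIWI and against siPAF1; 0.0448% were lower in double against siGFP. At an unadjusted p under 0.05 the 3 NUN comparisons with siGFP had 1, 4 and 2 of the 52 genes, or 1.92%, 7.69% and 3.85%, against 3.4%, 12.4% and 7.23% of all genes. Those in cyto had 1, 2 and 2 of the 11, against 11.3%, 11.8% and 11.9% of all genes. Double against siPIWI and against siPAF1 had 2 and 4 in NUN (3.85% and 7.69%, against 5.48% and 4.87%) and 0 in cyto (against 4.37% and 1.43%). DESeq2's Wald test called 1 gene in 1 comparison, CR43459 in NUN of siPAF1, and 0 in the other 9. The share of all genes that DESeq2 called there is not given here, so the call has no background beside it. Comparisons with siGFP share its libraries.

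CR43459 stood at 78 and 226 CPM in NUN of siGFP, 73 and 50.9 in siPIWI, 507 and 418 in siPAF1, and 78.4 and 197 in double. The siPAF1 libraries were the highest and did not overlap with any other group. The log2 difference to siGFP was 1.60 ± 0.61 (SE, edgeR adjusted p = 0.38, DESeq2 adjusted p = 0.0467), and 1.47 ± 0.41 with window length as an offset (edgeR adjusted p = 0.308). Its left flank measured 3382 bases in both siPAF1 libraries and 832 and 3382 in siGFP. In double, where Paf1 was also targeted, its level lay within the range of siGFP, and double against siPAF1 differed by -1.74 ± 0.62 (edgeR adjusted p = 0.932).

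CR42862 and yar had the lowest unadjusted p-values in NUN. CR42862 (3L, 224105 to 230964) stood at 10.5 and 7.3 CPM in siGFP, 9.53 and 7.4 in siPIWI, 1.69 and 2.76 in siPAF1, and 7.58 and 3.34 in double. Its siPAF1 libraries were below all others, by a log2 difference of -1.96 ± 0.50 to siGFP (SE, edgeR adjusted p = 0.254). CG33229, which it overlaps, differed by -0.29 ± 1.20 (SE, edgeR adjusted p = 0.937). yar had 0 and 1 counts in siGFP, 3 and 2 in siPIWI, 4 and 29 in siPAF1, and 11 and 21 in double. Its ratio of siPAF1 to siGFP was 24.8 with an exact 95% counting interval of 4.14 to 1010, and the adjusted p in edgeR was 0.28. Double against siGFP gave 32.4 (interval 5.41 to 1320, edgeR adjusted p = 0.342). Its window was 4774 and 5549 bases long in siGFP, 5169 and 8419 in siPAF1, and 7349 and 8799 in double, and the windows of 8419 bases and more reached the coding gene ac. Over the NUN libraries ac had 0 to 8 counts on its coding sequence.

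CR43424 had 0 and 1 counts in NUN of siGFP, 79 and 0 in siPIWI, 4 and 20 in siPAF1, and 16 and 21 in double. The siPIWI library with 79 counts had a window of 3981 bases, which reached CG2022 on the same strand, as did those of 2481 to 2731 bases in siPAF1 and double that held 16 to 21 counts. The siGFP windows were 1723 and 1781 bases and stopped short of it. The ratio of siPIWI to siGFP was 60 (exact 95% counting interval 10.5 to 2400, edgeR adjusted p = 1), carried by 1 of 2 libraries. pncr011:3L, with 1 count in siPAF1 against 195 in siGFP, had an adjusted p of 0.393 in edgeR.

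**Figure D5:**
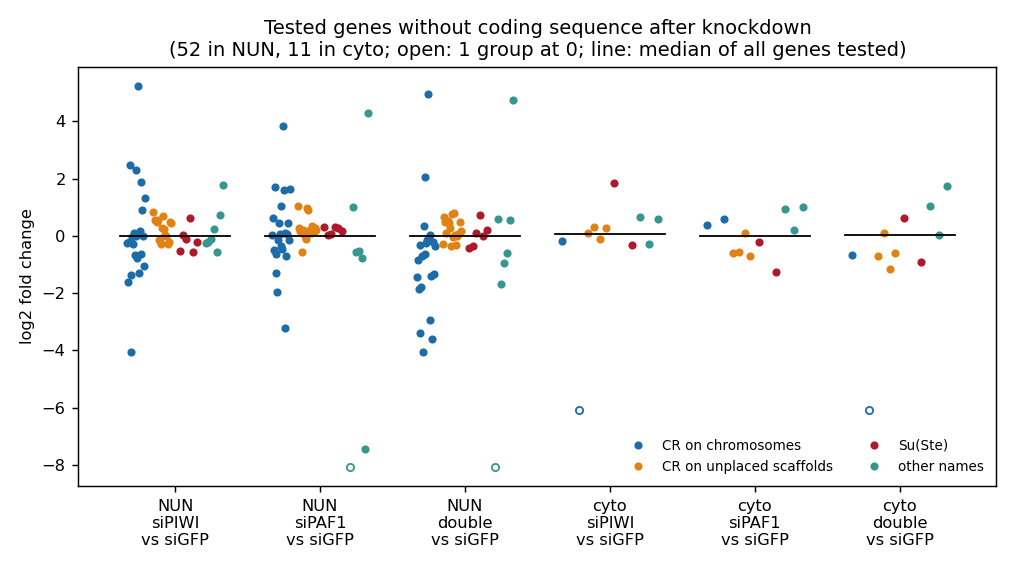
Log2 fold changes against siGFP (vertical axis) of the tested genes in the 3 knockdowns of each fraction, 52 in NUN and 11 in cyto, coloured by class, with the median of all genes tested as a line and open points where 1 group had no count. Scaffold and Su(Ste) genes in NUN lie close to the line, and the widest values belong to CR genes on chromosomes and to other names.

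By class, NUN median log2 differences of the 22 tested CR genes on chromosomes were -0.14 for siPIWI, 0.04 for siPAF1 and -0.67 for double. Those of the 7 genes with other names were -0.11, -0.55 and -0.61. Medians of the 17 tested CR genes on scaffolds were 0.27 for siPIWI, 0.20 for siPAF1 and 0.16 for double, and of the 6 Su(Ste) genes -0.17, 0.22 and 0.05. The medians over all genes were 0.01, -0.02 and 0.01. In double, 4 of the 22 CR genes on chromosomes were above 0, against 50.8% of all genes. Of the tested genes of any class whose windows differed by more than 1.5 times, 4 of 21 were above 0 (median -0.84). Of the others, 18 of 31 were (median 0.08). Whether window length accounts for the lower values was not tested. Su(Ste):CR42440 stood at 20.5 and 24.1 CPM in NUN of siGFP, 10.7 and 28.7 in siPIWI, 24.7 and 25.5 in siPAF1, and 23.7 and 27.7 in double, and siPIWI enclosed siGFP. Su(Ste):CR40820 in cyto stood at 2.41 and 3.36 CPM in siGFP and 13.5 and 6.63 in siPIWI, a log2 difference of 1.83 ± 0.74 (SE, edgeR adjusted p = 0.406). On coding sequence tj, much higher in NUN, stood at 341 and 67.8 CPM in cyto of siPIWI, against 134 and 115 in siGFP. Whether the high first siPIWI library bears on this difference was not tested. For RNaseP:RNA in cyto the difference was 0.95 ± 0.43 in siPAF1 (edgeR adjusted p = 0.411) and 1.04 ± 0.43 in double (adjusted p = 0.37).

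The knockdown changes were also compared between fractions. Of the 51 genes, 0 passed the adjusted threshold in edgeR for siPIWI, siPAF1 or double, as did 0% of all 8548 genes. At an unadjusted p under 0.05 in edgeR there were 3, 2 and 1 of the 51 genes. The share of all genes at that threshold is not given here, so these counts are not read as a result. DESeq2 called 0. For Su(Ste):CR40820 under siPIWI the difference in NUN less that in cyto was -2.43 ± 0.99 (log2, SE) (adjusted p = 0.747).

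Proteins that make, process or bind noncoding RNAs were followed in 8 lists. Several lists concern snRNAs, snoRNAs or tRNAs, and genes so named are not in the set. In the knockdown comparisons within a fraction 0 of the listed mRNAs were called. At most 0.145% of all genes were called in any of them, so this 0 is not read as a result about the lists. Between fractions over the 4 siRNA groups, 9 of 10 snRNP protein mRNAs were lower in NUN and 0 higher, 10 of 12 exosome and trimming mRNAs were lower and 1 higher, and 6 of 9 snoRNP core mRNAs were lower and 2 higher, read against 37.3% of all genes called lower and 45.8% called higher. The 6 mRNAs of the dosage compensation complex had 4 higher and 1 lower, the 11 of Integrator 5 and 3, the 5 of RNA polymerase III factors 2 and 2, the 3 snRNA activators 1 and 0, and drosha and pasha 1 and 1. One name in the polymerase III list, CSN4, is a COP9 signalosome subunit.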

How the data were processed

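RNA of OSS cells was sequenced in 16 libraries. Per the labels' protocols the library kit kept the strand. Bowtie is named in the submitters' processing notes, with no version. The genome build is not given in the sources used here. The authors deposited whole-number counts of uniquely aligned reads, and of all alignments, per transcript model, region and strand, without normalization. They also deposited normalized values (signal per locus, not used here), and, per the file headers, coordinates and lengths in bases (other columns). The column that holds a gene's own RNA took 95.4% of coding-sequence counts where the gene lies on the plus strand and 96% where it lies on the minus strand.

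Unique own-strand window counts of all 14229 genes, 1 longest model each, entered edgeR 4.0.16 (R 4.3.3). Genes were filtered by filterByExpr and scaled by TMM, and each group had 1 coefficient in the robust quasi-likelihood test. P-values were adjusted by Benjamini-Hochberg over all genes of a comparison, with a threshold of 0.05. The fits held 8939 genes in NUN (biological coefficient of variation 28.75%), 6699 in cyto (27.01%) and 8548 across fractions (28.07%). Each knockdown comparison set 2 libraries against 2. Where a group had no count, a floor of 3 counts over the group gave a bound, and 1 to 3 counts an exact 95% counting interval. The script that ran these tests was tested on simulated data.

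The genes, the lists and the rule for naming genes were chosen with earlier results of these data known. The rule named up to 10 called genes per direction and comparison, the 3 most abundant of each class, and 34 fixed names, of which 19 were present; the genes named for their windows, opposite strand or unadjusted p, and the neighbours, were chosen after their values were seen. Alternatives were DESeq2 1.42.0 (Wald test, or its size factors), no count filter, a strict one with a mean of at least 10 counts, all alignments, the shortest model, library sizes from coding sequences, both strands, library number as a block, only the groups compared, and each library left out. Window length as an offset and genes with clear windows were added after seeing the data. Library numbers were not taken to pair the samples, since not every correlation of deviations between same-numbered libraries was over 0.1: they ran from -0.32 to 0.48 between siRNA groups in NUN, from -0.03 to 0.40 in cyto, and from 0.05 to 0.10 between NUN and cyto of the same siRNA.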

Additional observations from a re-analysis of the deposited data

How the results depend on the processing

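The count of 0 genes called after knockdown held under most alternatives. DESeq2 called 1 gene in NUN for siPAF1 (CR43459), read without its share over all genes. Without a count filter 1 was called in cyto for double against siGFP, siPIWI and siPAF1 each (CR32252, with 64 counts in 1 library), and between fractions 1 for siPIWI and 2 for double. Leaving out 1 library gave 0 to 1 for siPIWI against siGFP and for double against siPIWI in NUN (CR42767, without the second siPIWI library) and 0 to 1 for double against siPIWI in cyto (CR41609, without the second siPIWI library).

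NUN against cyto in siGFP gave 29 calls among 51 genes (56.9%), 18 among the 28 with windows clear of coding genes (64.3%), 19 with the shortest model and 15 to 24 with 1 library left out (15 without the first cyto library, 18 without the second NUN library). Over the 4 groups there were 40 among 51 (78.4%), 25 among the 28 with clear windows (89.3%), 66 with both strands and 38 to 43 with 1 library left out. The 66 calls came from a larger set than the 51, since the filter was applied anew to the counts of both strands. Shares of all genes called under these alternatives are not given here, so a change in calls may reflect the set tested. A replicate block by library number gave 27 and 39 calls, and 0 in the knockdown comparisons. Since the numbers were not taken to pair the samples, the block is a second description only. The block kept 29 of 32 calls of named genes and lost 3.

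Directions reversed for CR31514 in siGFP (-6.60), Uhg4 (-4.33) and CR40743 (0.45) over the 4 groups with both strands, and with all alignments for CR40597 (0.86 in siGFP, 1.23 over the 4 groups) and Su(Ste):CR42406 (1.02). The cause was not tested. The exon-side share of 10.6% became 27.1% without genes whose window overlaps a coding gene and 1.07% by all alignments. CR43459 held most of the exon-side counts each time. Depth limits the genes with few counts: 25 of the 151 rest on a single count.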
